A study of Brachypodium distachyon with 12 samples.

Results

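The transcripts described here encode 4 Brachypodium distachyon glycosyltransferases of the growing cell wall: the primary wall cellulose synthases BdCESA1 (Bradi2g34240.1), BdCESA3 (Bradi1g54250.1) and BdCESA6 (Bradi1g53207.1), and the mixed-linkage glucan synthase BdCSLF6 (Bradi3g16307.1). They were chosen by locus identifier and by no rule on their measured values, although earlier results of these data were known. They are 4 of the 34310 transcripts counted. Each locus had 1 transcript model, of 3816 bases for BdCESA1, 3902 for BdCESA3, 4088 for BdCESA6 and 3678 for BdCSLF6. RNA was taken by laser capture microdissection from the top nodes of untreated wild-type plants (accession Bd21-3) aged 19 days by their labels, and 500 pg of RNA was given per library. Vascular bundles (VBs) were sorted by their visible protoxylem, the first water-conducting cells to form: VB type 1 had 0 such cells, VB type 2 had 1 to 2 and VB type 3 had 3 to 4. Parenchyma, the thin-walled ground tissue, was cut from the centre of the stem as the control. Each of these 4 groups had 3 libraries, and each library held captured tissue from a single plant or a few plants. The p-values given here measure only the spread between these samples, which may be partly technical. The sample labels give the tissue as meristem and 1 biological replicate, whereas the study's methods call the 3 libraries of a tissue biological replicates.

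Cellulose is made at the plasma membrane by rosette complexes that hold several kinds of CESA protein. In Arabidopsis, CESA1, CESA3 and members of the CESA6 group build the complex of the primary wall, the thin wall laid down while cells expand, and another set of CESA proteins builds the complex of the secondary wall in xylem and fibres. Grasses add a hemicellulose that most flowering plants lack, mixed-linkage glucan, and CSLF6 is the main synthase of its chains in cereals. These transcripts are therefore found in many growing tissues, and xylem and ground tissue both carry primary walls.

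Libraries held between 12888132 and 27218311 counted read pairs, and all 4 transcripts passed the filter on low counts in all 7 comparisons. A single transcript, Bradi2g12067.1, made up between 15.1% and 54.2% of counted pairs in 11 libraries but 86.3% in parenchyma replicate 3. That library kept 1768043 other pairs, against at least 9080187 in each of the others, and held 995 pairs of BdCESA1, 304 of BdCESA3, 589 of BdCESA6 and 201 of BdCSLF6. The 4 VB markers TMO6, PXY, XCP1 and PIN1a were all higher in the VBs as a whole than in parenchyma, by 2.42 to 5.90 on the log2 scale. The study named these markers and had already reported them as higher in VBs in the same libraries. Their direction here is therefore not an independent check of the tissue labels. In these bulk libraries, fewer cells of a type and less RNA per cell cannot be told apart.

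Levels are given as CPM, a library's pair counts divided by its total and set to a common size, after scaling by TMM, a normalization that equalises the bulk of transcripts between libraries. BdCESA1, the first cellulose synthase of the primary wall complex, had 68.9, 283 and 648 CPM in VB type 1 replicates 1, 2 and 3. It had 132, 272 and 446 CPM in VB type 2, 194, 155 and 327 CPM in VB type 3, and 196, 738 and 455 CPM in parenchyma. Parenchyma replicate 2 was the highest of the 12 libraries and VB type 1 replicate 1 the lowest, and every VB type overlapped parenchyma.

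BdCESA3, the second class of subunit, had 39.3, 271 and 530 CPM in VB type 1 replicates 1, 2 and 3. It had 43.8, 120 and 267 CPM in VB type 2, 56.4, 61.5 and 180 CPM in VB type 3, and 110, 201 and 139 CPM in parenchyma. The lowest and the highest library were both VB type 1, and the parenchyma values lay inside the range of the VBs.

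BdCESA6 belongs to the third class of subunit. It had 20.8, 175 and 662 CPM in VB type 1, 73.9, 131 and 503 CPM in VB type 2, 94.8, 62.8 and 181 CPM in VB type 3, and 333, 528 and 269 CPM in parenchyma. The 3 VB type 3 libraries were all below the lowest parenchyma library, whereas replicate 3 of VB type 1 was above all of them.

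BdCSLF6, the mixed-linkage glucan synthase, had 12.7, 142 and 446 CPM in VB type 1, 15.2, 80.6 and 274 CPM in VB type 2, 20.1, 65.1 and 140 CPM in VB type 3, and 184, 356 and 91.9 CPM in parenchyma. Replicate 1 of each VB type was below 21 CPM, lower than every other library, and the remaining VB libraries overlapped parenchyma.

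**Figure D1:**
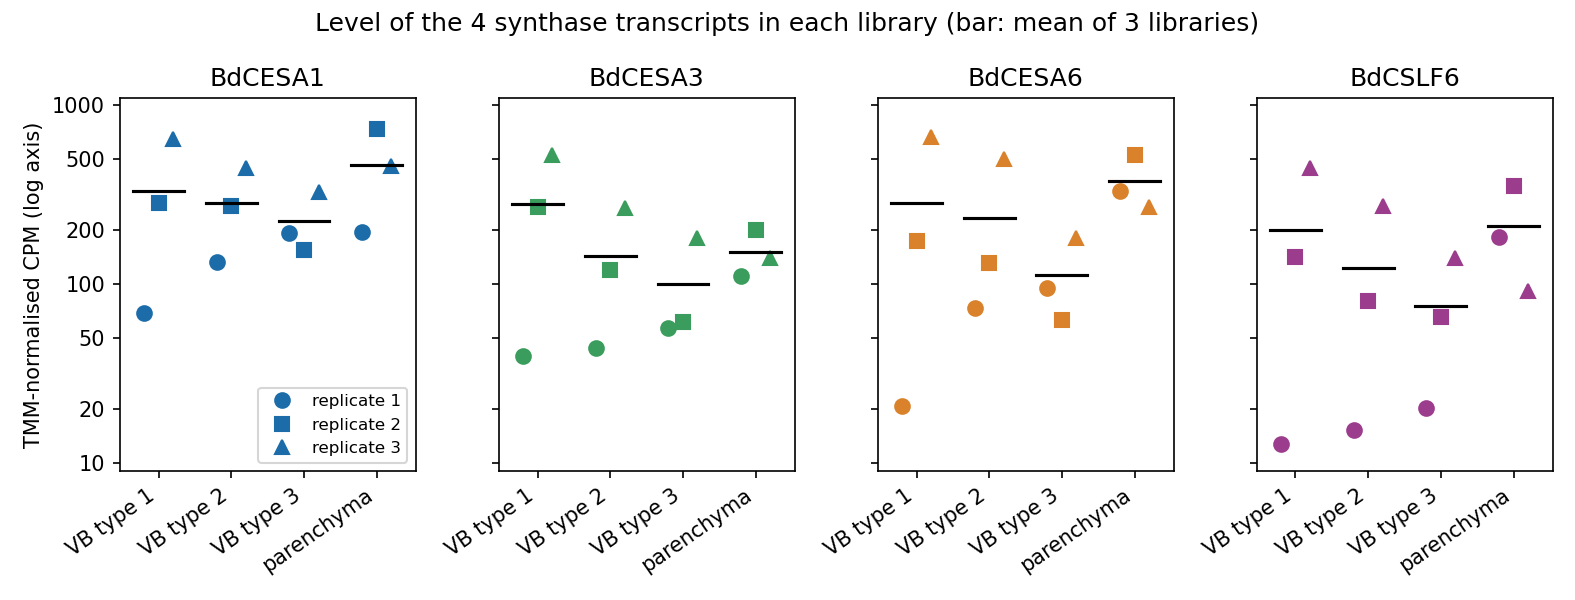
TMM-normalised CPM (log axis) of BdCESA1, BdCESA3, BdCESA6 and BdCSLF6 in each library, with the VB types left of parenchyma. Symbols mark the replicate number and the bar the mean of 3 libraries; replicate 3 (triangles) is the highest library of each VB type for all 4 transcripts, and VB type 3 lies wholly below parenchyma for BdCESA6 only.

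The VB libraries of 1 type differed from each other by more than the types did. From the lowest to the highest of the 9 VB libraries, BdCESA1 spanned 9.41-fold, BdCESA3 13.5-fold, BdCESA6 31.8-fold and BdCSLF6 35.1-fold. On the log2 CPM scale the SD over the VB libraries was 0.97 for BdCESA1, 1.34 for BdCESA3, 1.53 for BdCESA6 and 1.84 for BdCSLF6. The median SD was 0.86 over the 16706 transcripts tested in 12 libraries and 0.40 over the 865 of them that averaged at least 100 CPM. Among those abundant transcripts, 97.0% had a smaller SD than BdCSLF6 and 87.1% a smaller one than BdCESA1.

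This spread followed the replicate number. Replicate 3 was the highest of its VB type in 12 of 12 combinations of transcript and type, and replicate 1 the lowest in 10 of 12. The exceptions were BdCESA1 and BdCESA6 in VB type 3, where replicate 2 was lowest. Replicate 3 was highest in all 3 VB types for 7.55% of the 16706 transcripts, so the pattern was shared by 1261 transcripts in all. Parenchyma did not show it, as its highest library was replicate 2 for each of the 4 transcripts. The sources used here do not say what the replicate numbers share. The share of pairs on the dominant transcript was 54.0%, 35.2% and 26.1% in replicates 1, 2 and 3 of VB type 1, 31.5%, 41.9% and 37.1% in VB type 2, and 47.8%, 46.2% and 54.2% in VB type 3. It fell from replicate 1 to replicate 3 in VB type 1 but not in VB types 2 and 3. Over the 12 libraries its Pearson correlation with the log2 CPM of the 4 transcripts lay between -0.364 (BdCSLF6) and -0.119 (BdCESA1). XCP1, a xylem protease marker, was lower in replicate 1 of the VB types, at 245, 148 and 212 CPM in VB types 1, 2 and 3, than in the other VB libraries, which had 587 to 994 CPM. TMO6 was also lowest in replicate 1 of each VB type, but in VB type 1 replicates 1 and 3 had 32.0 and 32.2 CPM. PXY was lowest in replicate 2 of each VB type, at 8.10, 8.29 and 11.5 CPM. PIN1a was lowest in replicate 1 of VB type 1 (68.3 CPM) but highest in replicate 1 of VB type 2 (97.6 CPM). Whether xylem content or the share of the dominant transcript had a part in the levels of the synthases was not tested.

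The first question was whether these primary wall synthases differ between VBs and ground tissue. None of the 4 transcripts passed the main test in the VBs as a whole, where 5.02% of the transcripts tested had an adjusted p under 0.05 (quasi-likelihood test of edgeR, Benjamini-Hochberg adjustment). That test and the SDs treat the 9 VB libraries as independent samples, although levels in them followed the replicate number. BdCESA6 averaged 212 ± 220 CPM in the VBs (SD, n = 9) and 377 ± 135 CPM in parenchyma (SD, n = 3), a log2 fold change of -0.94 ± 0.70 (SE; adjusted p = 0.535, edgeR). BdCESA1 averaged 281 ± 178 CPM in the VBs and 463 ± 271 CPM in parenchyma, a log2 fold change of -0.74 ± 0.54 (adjusted p = 0.515, edgeR).

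BdCSLF6 averaged 133 ± 144 CPM in the VBs and 211 ± 134 CPM in parenchyma, a log2 fold change of -0.78 ± 0.84 (adjusted p = 0.697, edgeR). BdCESA3 averaged 174 ± 162 CPM in the VBs and 150 ± 46.6 CPM in parenchyma, a log2 fold change of 0.08 ± 0.64 (adjusted p = 0.967, edgeR). The median log2 fold change of the 4 was -0.76, against 0.01 over all transcripts tested. The 95% intervals were wide: for BdCESA3 the interval ran between -1.29 and 1.45 on the log2 scale, so neither a lower nor a higher level in VBs is shown to be absent. Without parenchyma replicate 3 the 4 log2 fold changes were -0.73 for BdCESA1, 0.05 for BdCESA3, -1.10 for BdCESA6 and -1.11 for BdCSLF6, and the adjusted p lay between 0.574 and 0.985. Without parenchyma replicate 2 they were -0.24 for BdCESA1, 0.35 for BdCESA3, -0.62 for BdCESA6 and -0.17 for BdCSLF6, and the adjusted p lay between 0.78 and 0.961 (edgeR).

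Each VB type was then set against parenchyma on its own. In VB type 1 the log2 fold changes were -0.46 for BdCESA1, 0.92 for BdCESA3, -0.37 for BdCESA6 and -0.05 for BdCSLF6, and none passed, as was the case for all transcripts (0% called, although 10.9% had an unadjusted p under 0.05). In VB type 2 they were -0.70, -0.05, -0.67 and -0.76 in the same order of transcripts, and none passed (0.12% of all transcripts were called). In VB type 3, the bundles with the most protoxylem, all 4 were negative, at -1.02, -0.58, -1.72 and -1.47, and none passed (0.883% of all transcripts were called). The VB type 1 values of BdCESA1, BdCESA6 and BdCSLF6 turned positive when replicate 1 of that type was left out, at 0.04, 0.19 and 0.52.

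BdCESA6 in VB type 3 was the nearest to a call. It averaged 113 ± 61.0 CPM in VB type 3 and 377 ± 135 CPM in parenchyma (SD, n = 3 each). The log2 fold change was -1.72 ± 0.46 (SE), with a 95% interval between -2.75 and -0.70, an unadjusted p of 0.00379 and an adjusted p of 0.128 in edgeR's quasi-likelihood test. It ranked 486th of 16427 transcripts by p. Groups that did not overlap, with VB type 3 lower, were found for 10.3% of all transcripts, and BdCESA6 was the 1 member among them. The study's own choice, a likelihood ratio test in edgeR, gave BdCESA6 an adjusted p of 0.0447 and called 2.91% of all transcripts lower. DESeq2 gave 0.0138 (3.91% called lower), limma-voom with quality weights 0.0288 (1.61% called lower), and the quasi-likelihood test without a filter on low counts 0.0264 (1.75% called lower). In the other fits, those without 1 library included, the adjusted p lay between 0.096 and 1, so the call depends on the fit.

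**Figure D2:**
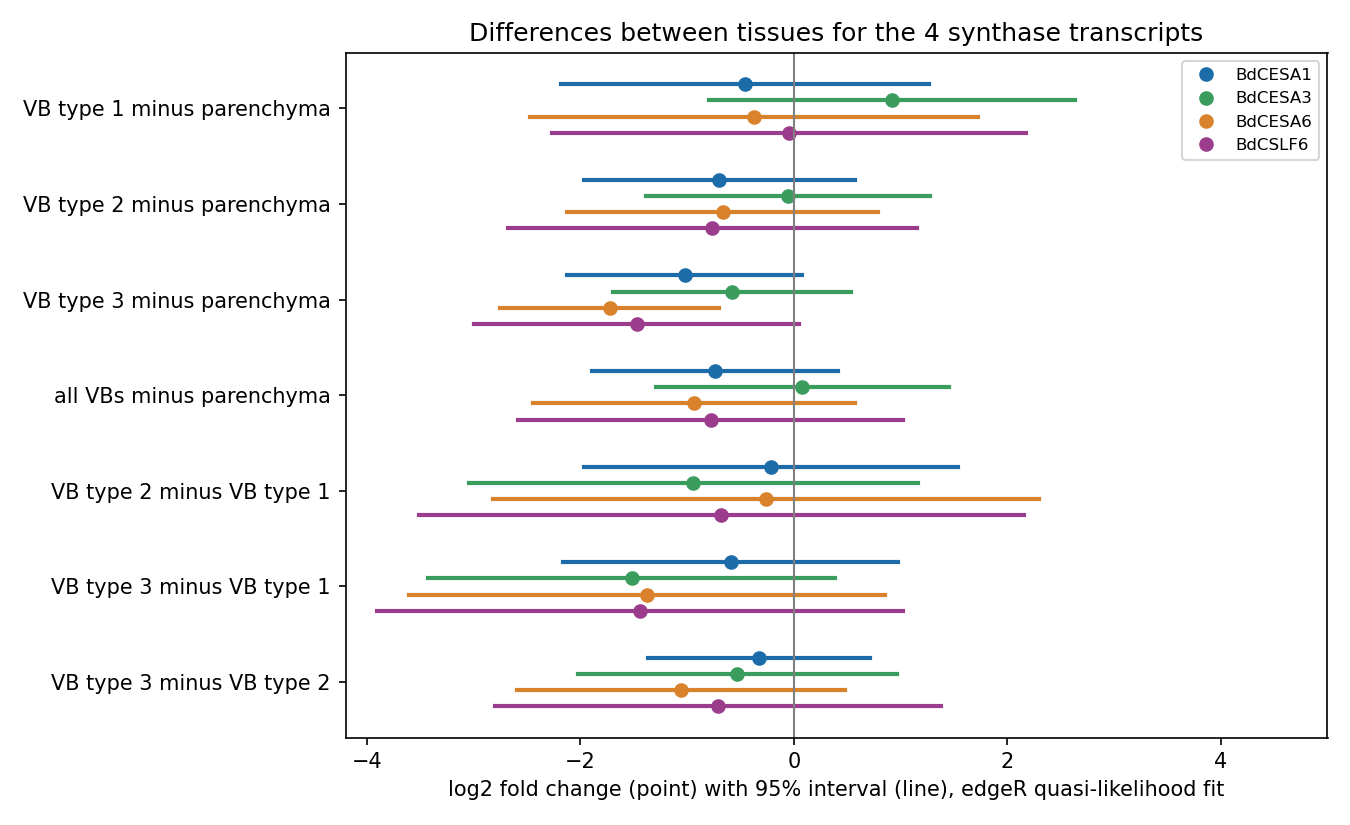
Log2 fold change (points) with its 95% interval (lines) from edgeR's quasi-likelihood fit for BdCESA1, BdCESA3, BdCESA6 and BdCSLF6 in 7 comparisons. All intervals cross 0 except that of BdCESA6 in VB type 3 minus parenchyma, at -2.75 to -0.70.

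The VB types were also compared with each other, to follow the transcripts with protoxylem number. The mean of each transcript was highest in VB type 1 and lowest in VB type 3: 333, 283 and 225 CPM for BdCESA1, 280, 144 and 99.4 CPM for BdCESA3, 286, 236 and 113 CPM for BdCESA6, and 200, 123 and 75.2 CPM for BdCSLF6. These neighbouring types did not differ beyond their spread, since all VB types overlapped for each transcript. In VB type 3 minus VB type 1 the log2 fold changes were -0.59 ± 0.68 for BdCESA1, -1.52 ± 0.83 for BdCESA3, -1.37 ± 0.97 for BdCESA6 and -1.44 ± 1.07 for BdCSLF6 (SE; adjusted p = 1 for each, edgeR). No member passed between any pair of VB types, and 0% of all transcripts did (2.04% to 2.69% had an unadjusted p under 0.05). The order of the means rested partly on replicate 3. Leaving VB type 2 replicate 3 out turned the difference between VB type 3 and VB type 2 positive for all 4 transcripts, by 0.14 to 0.65. Leaving VB type 1 replicate 3 out turned that between VB type 3 and VB type 1 positive for BdCESA1 (0.34) and BdCESA6 (0.19). The latter difference stayed negative whichever library was left out for BdCESA3 (-2.28 to -0.65) and BdCSLF6 (-2.27 to -0.05).

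Levels can be set between transcripts only per length, so CPM were divided by transcript length in kb. In the VBs BdCESA1 had the highest mean, 73.5 ± 46.8 CPM per kb, followed by BdCESA6 with 51.7 ± 53.8, BdCESA3 with 44.7 ± 41.5 and BdCSLF6 with 36.1 ± 39.2 (SD, n = 9). In parenchyma the means were 121 ± 71.0 for BdCESA1, 92.1 ± 32.9 for BdCESA6, 57.3 ± 36.5 for BdCSLF6 and 38.5 ± 11.9 for BdCESA3 CPM per kb (SD, n = 3). BdCESA1 was the highest of the 4 in 10 of 12 libraries and BdCSLF6 the lowest in 8. BdCESA6 was the highest in parenchyma replicate 1 and VB type 2 replicate 3.

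The make-up of the set is given as the share of each transcript in the summed CPM per kb of the 4. BdCESA3 held 21.1 ± 5.21% in the VBs and 12.9 ± 1.81% in parenchyma (SD), and its 9 VB shares, from 15.4% to 30.8%, all lay above the 3 parenchyma shares, from 11.0% to 14.5%. BdCESA6 held 22.5 ± 5.71% in the VBs and 30.9 ± 6.63% in parenchyma. BdCESA1 held 41.9 ± 9.30% in the VBs and 38.0 ± 12.4% in parenchyma, and BdCSLF6 held 14.5 ± 5.91% in the VBs and 18.1 ± 7.07% in parenchyma. Shares of BdCESA1, BdCESA6 and BdCSLF6 overlapped between the tissues. BdCSLF6 held 9.42%, 6.08% and 5.83% in replicate 1 of VB types 1, 2 and 3 and between 14.0% and 20.6% in the other VB libraries.

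**Figure D3:**
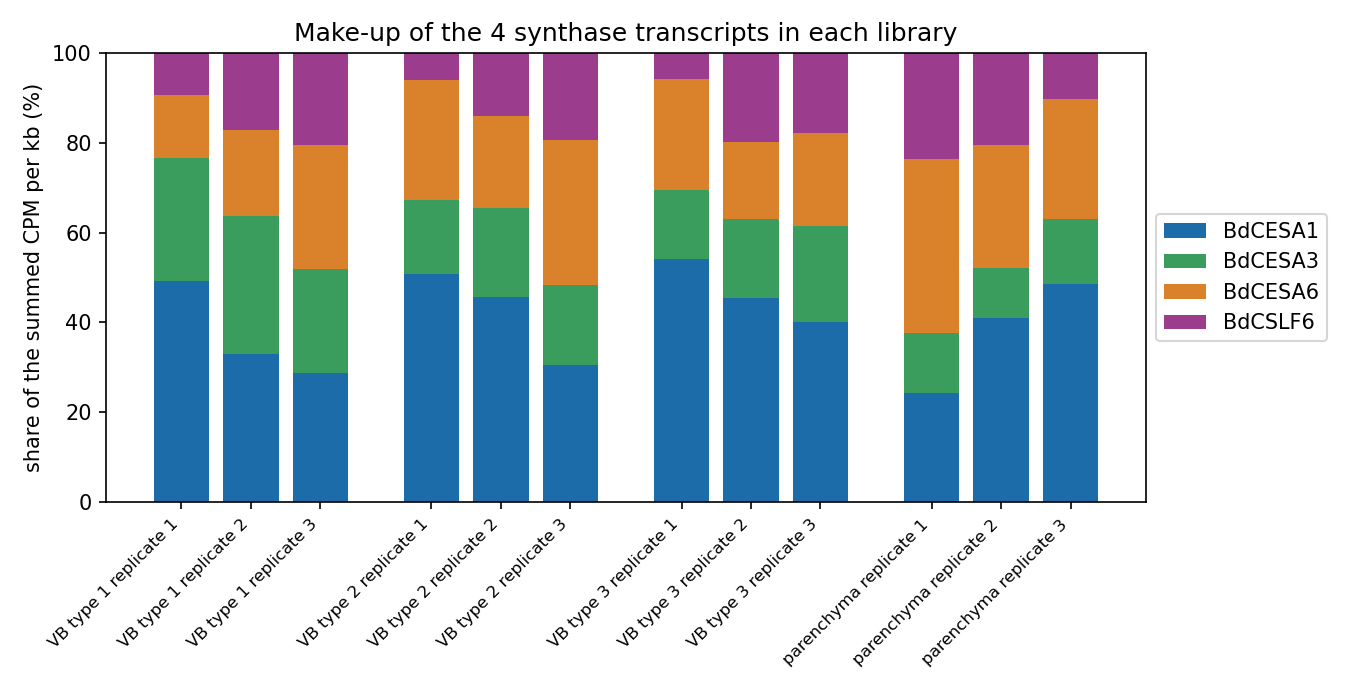
Share (%) of BdCESA1, BdCESA3, BdCESA6 and BdCSLF6 in the summed CPM per kb of the 4, with 1 bar per library and the VB types left of parenchyma. The BdCESA3 band is 15.4% to 30.8% of the bar in the VB libraries and 11.0% to 14.5% in parenchyma.

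A ratio of 2 transcripts within a library does not depend on the scaling of that library. The 6 ratios were compared between the 9 VB and the 3 parenchyma libraries by an exact two-sided permutation test over 220 splits, whose smallest possible p is 0.00455, with adjustment over the 6. The test treats the 9 VB libraries as interchangeable, although levels in them followed the replicate number. The log2 ratio of BdCESA3 to BdCESA6 was 0.91, 0.63 and -0.32 in VB type 1, -0.75, -0.12 and -0.91 in VB type 2, -0.75, -0.03 and 0.00 in VB type 3, and -1.59, -1.39 and -0.95 in parenchyma. All 9 VB libraries were above the 3 parenchyma libraries. The difference was 1.16 (exact permutation p = 0.0182, adjusted p = 0.109), so it did not pass after adjustment, and without VB type 2 replicate 3 it was 1.26 with an adjusted p of 0.0364 in the exact permutation test. Leaving out any other single library gave an adjusted p between 0.0727 and 0.218, and single-read counts gave 0.164, in the same exact test. Permutation within replicate number gave an adjusted p of 0.188.

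The ratio of BdCESA3 to BdCSLF6 differed by 1.06 between VBs and parenchyma (exact permutation p = 0.0455, adjusted p = 0.136), with overlapping groups. The other 4 ratios differed by -0.51 to 0.65 and had an adjusted p between 0.307 and 0.877 in the exact permutation test. Within the VBs, the ratio of BdCESA1 to BdCSLF6 varied most, with an SD of 1.02 on the log2 scale, and that of BdCESA1 to BdCESA6 had an SD of 0.60. Per kb, BdCESA1 exceeded BdCSLF6 by 5.22-, 8.35- and 9.26-fold in replicate 1 of VB types 1, 2 and 3 and by 1.40- to 3.25-fold in the other VB libraries.

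**Figure D4:**
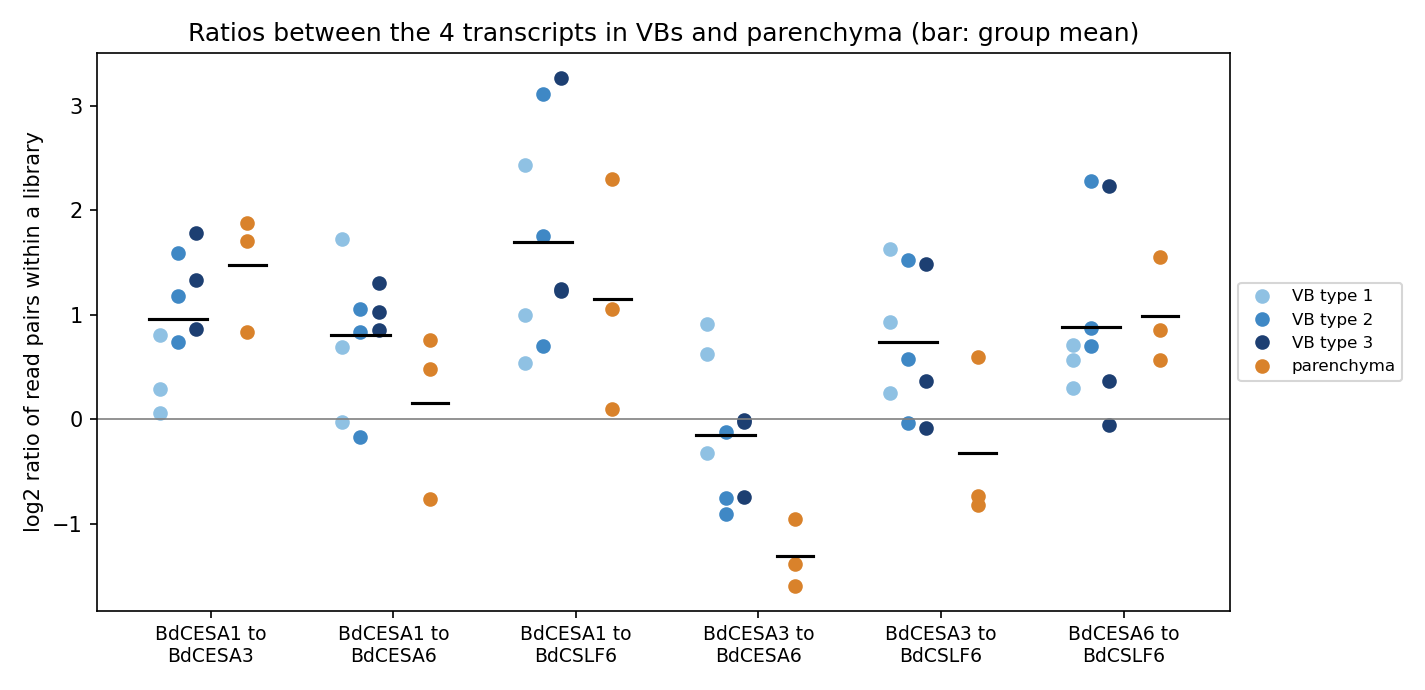
Log2 ratio of read pairs within each library for the 6 pairs of transcripts, VB libraries left of parenchyma and coloured by VB type, with bars at the group means. The BdCESA3 to BdCESA6 ratio of every VB library (-0.91 to 0.91) is above the parenchyma libraries (-1.59 to -0.95), and the other pairs overlap.

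The 4 transcripts varied together. Over the 12 libraries their log2 CPM had Pearson correlations between 0.859 (BdCESA3 with BdCESA6) and 0.918 (BdCESA1 with BdCESA6), and over the 9 VB libraries between 0.898 (BdCESA6 with BdCSLF6) and 0.982 (BdCESA1 with BdCESA6). These points share the libraries, their scaling and the order by replicate number given above, so the values are a description. The 16702 other transcripts were ranked by their Pearson correlation with each member over the 12 libraries. Between 17 (closer to BdCESA3 than BdCSLF6 was) and 156 (closer to BdCSLF6 than BdCESA1 was) were closer to a member than another member was. By rank (Spearman) correlation these counts ran between 3 and 280, and by Pearson correlation without parenchyma replicate 3 between 34 and 195.

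The transcript most like BdCESA1 over the 12 libraries was Bradi1g64646.1 (Pearson r = 0.978), whose best Arabidopsis match in the study's tables is a cAMP-regulated phosphoprotein 19-related protein, followed by Bradi1g60750.1 (0.960) and Bradi5g18080.3 (0.955). Those most like BdCESA3 were Bradi5g24290.1 (0.960), Bradi5g20012.1 (0.956) and Bradi3g45530.1 (0.953). Those most like BdCESA6 were Bradi1g21330.1 (0.968), Bradi3g54220.2 (0.966) and Bradi1g55440.1 (0.961). Closest to BdCSLF6 were Bradi1g08120.1 (0.982), Bradi1g18340.1 (0.974) and Bradi5g14580.1 (0.965). None of these transcripts passed the test between the VBs as a whole and parenchyma, where their log2 fold changes lay between -1.38 and 0.25. Bradi1g08120.1 was also the closest to the mean profile of the 4, with r = 0.977, followed by Bradi3g54220.2, Bradi1g09460.1 and Bradi1g02510.1, the last of which the study's coexpression table labels as the cellulose synthase CESA5. The names depended on the measure. By rank (Spearman) correlation the closest to BdCESA3, BdCESA6 and BdCSLF6 stayed the same, but that to BdCESA1 was Bradi4g29770.1 (0.979). The 5 closest to the mean profile were then all others, led by Bradi1g21880.1 (0.972), and Bradi1g02510.1 was not among them. By Pearson correlation without parenchyma replicate 3, Bradi1g02510.1 stayed among the first 5.

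The rest of the family was represented by 12 loci of cellulose synthases and cellulose synthase-like genes. In the VBs as a whole 9 of the 12 were tested, 1 was higher, 0 were lower and 8 did not pass, against 5.02% called in either direction among all transcripts, with a median log2 fold change of -0.20 (0.01 over all transcripts tested). The 1 that was higher, Bradi3g28350.1, met the filter on low counts through VB libraries alone. Against single VB types, 7 of the 12 were tested in VB type 1, 9 in VB type 2 and 7 in VB type 3, and 0 passed in any of them. Bradi3g28350.1 did not meet the filter in VB types 1 and 3, so it was not tested there. In VB type 2 it did not pass (adjusted p = 0.0666, edgeR). Among all transcripts 0% passed in VB type 1, 0.12% in VB type 2 and 0.883% in VB type 3. Of the 3 that were not tested in the VBs as a whole, Bradi1g36740.2 had 0 pairs in every library, and the best matches of CSLD5 (Bradi1g25130.1) and CSLC5 (Bradi3g19087.1) were at 0 in most.

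The transcript labelled CESA5 was the most abundant of the 12. It had 62.9, 291 and 678 CPM in VB type 1, 104, 266 and 422 CPM in VB type 2, 128, 169 and 178 CPM in VB type 3, and 223, 404 and 210 CPM in parenchyma. Its VB type 3 libraries were all below parenchyma, as for BdCESA6 and for 10.3% of all transcripts. Replicate 3 was its highest library in each VB type, as for the 4 synthases above, and replicate 1 its lowest. The 12 loci did not all share this order. In Bradi1g04597.4 replicate 3 was instead the lowest, at 7.93, 8.75 and 20.4 CPM in VB types 1, 2 and 3. Its other VB libraries had 34.3 to 112 CPM. Bradi2g50967.1 and Bradi3g06740.1 had replicate 3 highest in each VB type. The log2 fold change of the transcript labelled CESA5 in the VBs as a whole was -0.20 ± 0.53 (SE; adjusted p = 0.894, edgeR).

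The transcript that was higher was Bradi3g28350.1. It met the filter on low counts through VB libraries alone. It could therefore enter the test only as higher in VBs, and its adjusted p is a description. The sources used here give it no name, but it was listed here as a secondary wall cellulose synthase of xylem. It had 14, 72 and 139 pairs in VB type 1, 198, 459 and 112 pairs in VB type 2, 17, 82 and 163 pairs in VB type 3, and 1, 1 and 0 pairs in parenchyma (adjusted p = 0.0119, edgeR). Its VB mean of 6.34 CPM was at least 12.3-fold higher than the limit of 3 pairs per library in parenchyma. That level is small beside the 133 CPM of BdCSLF6, the least abundant of the 4 primary wall transcripts in the VBs. The best match of CESA8, Bradi2g49912.1, and Bradi4g30540.1 were listed in the same way. The former averaged 7.66 ± 5.88 CPM in the VBs and 0.72 ± 0.60 CPM in parenchyma, a log2 fold change of 3.45, and did not pass (adjusted p = 0.154, edgeR). Bradi4g30540.1 averaged 4.28 ± 5.13 and 0.20 ± 0.22 CPM, a log2 fold change of 4.92, and did not pass (adjusted p = 0.208, edgeR). It had at most 3 pairs in a parenchyma library and 0 in VB type 3 replicate 1. Of the 9 loci tested in the VBs as a whole, these 3 had a positive log2 fold change and 6 a negative one. Bradi4g30540.1 also met the filter through VB libraries alone. The positive direction of Bradi3g28350.1 and Bradi4g30540.1 was thus set by the filter.

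Among the cellulose synthase-like genes, the best match of CSLD3 (Bradi3g45515.1) averaged 51.6 ± 34.5 CPM in the VBs and 108 ± 49.6 CPM in parenchyma (adjusted p = 0.331, edgeR). CSLA1 (Bradi3g06740.1), of the mannan synthase family, averaged 136 ± 61.8 CPM in the VBs and 154 ± 95.8 CPM in parenchyma (adjusted p = 0.878, edgeR). CSLC1 (Bradi2g50967.1), of the family that makes the xyloglucan backbone, averaged 45.5 ± 38.2 CPM in the VBs and 60.0 ± 26.1 CPM in parenchyma (adjusted p = 0.810, edgeR). For CSLA1, CSLC1 and the best match of CSLD3, the VBs as a whole and the parenchyma libraries overlapped. In VB type 2 alone, all libraries of the CSLD3 match were below parenchyma (log2 fold change -1.16, adjusted p = 0.415, edgeR). The share of all transcripts without overlap was not counted for that type.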

How the data were processed

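Per the study's methods, the authors used Trimmomatic for trimming, sortMeRNA against ribosomal reads and Bowtie 2 for alignment to 34310 transcripts. They deposited raw counts of read pairs and of single reads per transcript, without normalization, and the deposited transcript lengths (other values, in bases) were used for CPM per kb. Per the file headers, reads with equally good hits were removed, so transcripts with near-identical copies are undercounted. The labels call the libraries unstranded and the methods call them stranded, so reads from overlapping antisense genes may not have been told apart. The aligner's version, a genome build and coordinates are not given in the sources used here, and no sequence or genome was used. The 0 columns without a group were left out.

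Groups and replicate numbers came from the labels. The pair counts were fitted by edgeR 4.0.16 under R 4.3.3. A transcript needed 1 CPM or more in 3 of 6 (or 6 of 12) libraries, and TMM gave the scaling. Each comparison of 2 groups was fitted on its 6 libraries, and the VBs as a whole were the mean of the 3 types in a fit of 12. The quasi-likelihood F-test was used, with Benjamini-Hochberg adjustment and a threshold of 0.05. SE is the log2 fold change divided by the root of F. Likeness used log2 CPM with a prior count of 2, and ratios a pseudocount of 0.5. Alternatives were edgeR's likelihood ratio test (the study's test), DESeq2 1.42.0, limma 3.58.1 voom with quality weights, other scalings and filters, single-read counts, a replicate block and leaving out each library. The pipeline was tested on simulated data. Python 3.11.15 and matplotlib 3.10.9 drew the figures.

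Transcripts were named by rule: the 4 members, loci of the family and marker lists that passed the test or were the most abundant, and the 3 transcripts most like each member (5 for their mean). The family members named beside these were chosen after their values were seen. Members and lists were chosen with earlier results of these data known. Lists planned by gene description could not be built, because the reference table did not match the transcript identifiers. No 2 libraries held the same counts.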

Additional observations from a re-analysis of the deposited data

Results flagged for a closer look

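In 3 of the 23 sets of 9 VB libraries tested, 1 library stood apart from the rest by a gap larger than Dixon's limit of 0.493 of the range. Chance flags about 1 set in 20 where values are normal and sets are independent. Most of these sets were CPM without a log scale and all shared the same 9 libraries, so that rate need not hold here. BdCESA3 had 530.1 CPM in VB type 1 replicate 3, and the gap to the next VB library was 0.529 of the range. Bradi3g28350.1 had 22.3 CPM in VB type 2 replicate 2, with a gap of 0.613 of the range. The marker TMO6 had 95.04 CPM in VB type 1 replicate 2, with a gap of 0.635 of the range.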

How the results depend on the processing

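No fold change of the 4 transcripts passed under any alternative except the following. In VB type 3 minus parenchyma, 1 member, BdCESA6, was called by DESeq2 (-1.73), the likelihood ratio test (-1.72), limma-voom with quality weights (-1.90) and without a filter on low counts (-1.74). In all VBs minus parenchyma, 1 member, BdCSLF6, was called by the likelihood ratio test with the replicate block, an alternative chosen after seeing the data (-1.98, adjusted p = 0.0303, edgeR; 6.61% of all transcripts were called lower; adjusted p = 0.118 with the block in the quasi-likelihood test), whose adjusted p ran between 0.0303 and 0.867 over its alternatives; the cause was not tested.

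Several values close to 0 changed sign. BdCESA3 in all VBs minus parenchyma was -0.37 with the replicate block in both tests and -0.24 in limma-voom. BdCSLF6 in VB type 1 minus parenchyma was 0.0525 without TMM and 0.0282 from single reads, and BdCESA3 in VB type 2 minus parenchyma was 0.20 without TMM. With the replicate block, BdCESA1 was 0.13 and BdCESA6 0.32 in VB type 2 minus VB type 1, in both tests. The block also ended the call of BdCESA6 in VB type 3 minus parenchyma by the likelihood ratio test (adjusted p = 0.096, edgeR) and changed no other call of a member. With permutation within replicate number, the BdCESA3 to BdCESA6 ratio had an adjusted p of 0.188 (exact permutation test). Deviations of same-numbered libraries correlated over 0.1 in 6 of 9 pairs of different VB types (not in the 3 pairs of replicate 2) and in 0 of 9 pairs of VB and parenchyma libraries. A library correlated best with its own number in 13 of 18 cases between VB types and in 5 of 18 between VBs and parenchyma. Since not every pair passed 0.1, the numbers were not taken as pairs. Without TMM the median of all transcripts moved to between -0.35 and 0.32 over the comparisons, against -0.03 to 0.02 with it.

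Leaving out each library in turn gave these ranges in all VBs minus parenchyma: -1.09 to -0.24 for BdCESA1, -0.20 to 0.35 for BdCESA3, -1.45 to -0.62 for BdCESA6 and -1.23 to -0.17 for BdCSLF6. In VB type 1 minus parenchyma they were -1.33 to 0.12 for BdCESA1, -1.87 to 0.19 for BdCESA6 and -1.38 to 0.63 for BdCSLF6, and in VB type 2 minus parenchyma -0.85 to 0.38 for BdCESA3. In VB type 2 minus VB type 1 they were -0.74 to 0.71 for BdCESA1, -1.51 to 1.29 for BdCESA6 and -2.08 to 0.70 for BdCSLF6. In VB type 3 minus VB type 1 they were -1.07 to 0.34 for BdCESA1 and -1.92 to 0.19 for BdCESA6. In VB type 3 minus VB type 2 they were -0.71 to 0.15 for BdCESA1, -1.29 to 0.28 for BdCESA3, -1.59 to 0.14 for BdCESA6 and -1.54 to 0.65 for BdCSLF6. The BdCESA3 to BdCESA6 ratio ran between 1.02 and 1.34, and was called without VB type 2 replicate 3 (adjusted p = 0.0364, exact permutation test), and the BdCESA6 to BdCSLF6 ratio ran between -0.32 and 0.18.

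The counts of all transcripts called depended on the test. Against VB type 1 minus parenchyma (0), VB type 2 minus parenchyma (20), VB type 3 minus parenchyma (145) and all VBs minus parenchyma (839), DESeq2 called 806, 749, 929 and 1829, the likelihood ratio test 653, 556, 702 and 1677, and that test with the replicate block 540, 474, 583 and 1768. Without TMM the counts were 70, 37, 32 and 145. For the single VB types, limma-voom called 144, 145 and 304, no filter 112, 360 and 570, and one fit of all libraries 190, 310 and 287. In VB type 2 the count was 5 under the stricter filter, 6 with the replicate block, 7 from single reads and 61 without the dominant transcript, and in VB type 3 it was 1 with the replicate block. Between VB types 2 and 1, 3 and 1, and 3 and 2, where the main count was 0, DESeq2 called 16, 21 and 14, the likelihood ratio test 19, 24 and 4, and that test with the replicate block 50, 40 and 28. With 1 library left out, the counts ran between 0 and 8 in VB type 1, 0 and 11 in VB type 2, 0 and 144 in VB type 3 and 573 and 827 in all VBs.

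The 3 parenchyma libraries limit every comparison with parenchyma, and parenchyma replicate 3 is the shallowest of them. Depth did not limit detection, since the lowest count of a member was 201 pairs.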
